A study of Mus musculus with 12 samples.

Results

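The insulin-like growth factor (IGF) genes described here are 10 in number: the ligands Igf1 and Igf2, the receptors Igf1r and Igf2r, and the binding proteins Igfbp2, Igfbp3, Igfbp4, Igfbp5, Igfbp6 and Igfbp7. They were chosen by gene symbol, with earlier results of these data known. The platform annotation assigns 11 of the 17589 probes to them, with 2 probes for Igf1r and 1 for each other gene. The table names 12913 genes in all. RNA came from mammary glands of 5-week-old B-actin-GFP reporter mice, in which fluorescence guided the dissection. Terminal end buds, the bulbous growing tips of the ductal tree, were labelled with Cy5 on 6 arrays, and Ducts, the mature tubes behind them, on another 6. Every array carried Distal Stroma in Cy3, fat pad beyond the growing tips and free of epithelium, so each value is a log ratio of an epithelial structure over stroma. The sources used here do not state the strain, the sex of the mice, the number of animals behind an array or any pooling of RNA.

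IGF1 and IGF2 are secreted growth factors that act mainly through the receptor tyrosine kinase encoded by Igf1r, while the product of Igf2r binds IGF2 and carries it to lysosomes. The binding proteins hold IGFs in the tissue fluid and can block or prolong their action, and IGFBP7 is a relative with low affinity for IGFs. In the mammary gland, growth hormone acts on the stroma, which makes IGF1, and IGF1 is needed for terminal end buds to form and advance. IGFBP5 is known in this tissue for its rise when the gland regresses after lactation.

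The sources used here name no log base for the ratios. Base 2 was taken, and another base would alter sizes and folds while leaving the signs. Stroma served only as the reference on each array, with no spread of its own in the tests. With the same dye for epithelium on every array a dye bias of a probe stays in its ratio. Since no label names separate animals, the p-values reflect array-to-array spread alone, and that spread may be technical. Precision is limited by having 6 arrays a group. In pieces of tissue, fewer cells of a type and less RNA per cell cannot be told apart.

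The labels fit the epithelial markers. The mean log2 ratio of 8 luminal genes was 3.51 to 4.35 on terminal end bud arrays and 3.16 to 3.75 on duct arrays, and that of 7 of 8 listed basal genes was 1.40 to 2.13 and 1.74 to 2.43. No pair of arrays held the same values, the highest correlation between arrays being 0.877 over all probes.

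The main contrast lay among the binding proteins. Igfbp2 was the member most enriched in terminal end buds and Igfbp5 the one most enriched in ducts. Igf1 was below stroma in both structures and lowest in terminal end buds. Igfbp6 and Igfbp7 were below stroma in terminal end buds, and Igfbp7 was above stroma in ducts. In terminal end buds against stroma, 3 of the 11 probes were higher and 4 lower at an adjusted p under 0.05 (limma, Benjamini-Hochberg over all probes). Of all probes 43.6% passed there, 23.2% higher and 20.4% lower. In ducts against stroma, 7 member probes were higher and 1 lower, where 28.2% of all probes passed, 16.0% higher and 12.2% lower. Between the structures, 1 member probe was higher and 5 were lower in terminal end buds, where 18.7% of all probes passed, 8.32% higher and 10.4% lower. The median difference, terminal end bud minus duct, was -0.265 over the 11 probes and 0.00033 over all probes on the log2 scale, and the median absolute difference was 0.52 against 0.15.

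**Figure D1:**
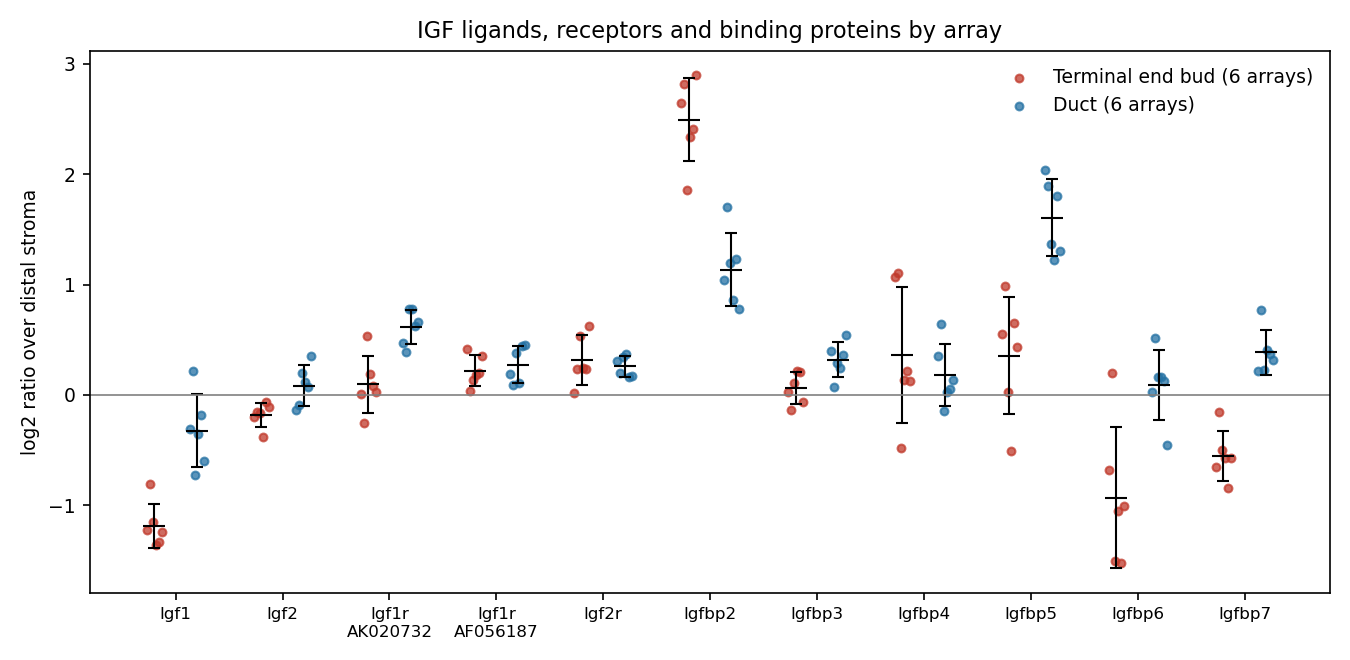
Log2 ratios over distal stroma of the 11 probes, by array. Red points are the 6 terminal end bud arrays and blue points the 6 duct arrays. Black bars give the mean and SD. Igfbp2 is highest in terminal end buds, at 1.86 to 2.90, and Igfbp5 is highest in ducts, at 1.22 to 2.04, while Igf1 lies at -1.36 to -0.81 in terminal end buds.

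Igfbp2 and Igfbp5 are neighbours on mouse chromosome 1, transcribed towards each other, and the RefSeq gene table (assembly GRCm38.p6) lists 0 genes between them. The windows of 250 bases before their annotated starts are shown because these neighbouring genes differed in opposite directions between the structures. Both read 5′ to 3′ on the gene's own strand and come from RefSeq, GRCm38.p6. The Igfbp2 window is chr1:72824230-72824479 (+ strand) and the Igfbp5 window is chr1:72874866-72875115 (- strand). Capitals mark every match, on either strand, to 5 motifs chosen after the windows had been seen: the TATA forms TATAAA and TATTTAAA, the GC box GGGCGG, the E-box CACGTG and the AP-2 consensus GCCNNNGGC.
Igfbp2: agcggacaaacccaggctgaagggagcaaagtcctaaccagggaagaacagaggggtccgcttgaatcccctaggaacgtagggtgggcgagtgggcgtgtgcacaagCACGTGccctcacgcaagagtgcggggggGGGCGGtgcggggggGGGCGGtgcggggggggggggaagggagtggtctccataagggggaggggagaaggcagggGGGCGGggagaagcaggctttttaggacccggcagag
Igfbp5: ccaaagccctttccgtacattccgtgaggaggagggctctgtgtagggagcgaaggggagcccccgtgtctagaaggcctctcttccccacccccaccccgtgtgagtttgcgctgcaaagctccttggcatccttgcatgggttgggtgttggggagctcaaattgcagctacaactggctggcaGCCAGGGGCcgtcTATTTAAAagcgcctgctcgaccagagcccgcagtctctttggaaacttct

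The Igfbp2 window had 67.2% G and C and held GGGCGG at 3 places, first bases 113, 98 and 37 before the start, and CACGTG at 142 before it. It held neither TATA form. The Igfbp5 window had 58.8% G and C and held TATTTAAA at 51 before the annotated start and GCCNNNGGC at 64, with no GC box and no CACGTG. Of 32851 RefSeq windows of this length, 32.7% held GGGCGG, 6.02% CACGTG, 1.71% TATTTAAA, 12.4% TATAAA and 13.7% GCCNNNGGC. No motif of the 5 overlapped another in these windows. These matches describe the letters and were not tested for binding.

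Igf1, the ligand that acts through Igf1r, lay below stroma on all 6 terminal end bud arrays. Its log2 ratios ran from -1.36 through a median of -1.24 to -0.81 in terminal end buds, and from -0.72 through -0.33 to 0.21 in ducts. The groups did not overlap. The mean was -1.19 (SE 0.10, limma adjusted p = 3.23e-07) in terminal end buds, which is 2.28-fold below stroma. In ducts it was -0.32 (SE 0.10, adjusted p = 0.0291), with 5 of 6 arrays below stroma. That duct value is not firm: without duct replicate 1, 3, 4 or 6, each left out alone, its adjusted p was 0.058 to 0.109, and with the arrays scaled to a common median absolute deviation it was 0.275. Terminal end buds were lower than ducts by a log2 difference of -0.86 (SE 0.14, adjusted p = 0.000837), in all 6 pairs of neighbouring slide numbers. The number that ends each sample title was taken as a slide number, although the titles do not call it one. Under quantile normalization the difference was -0.50 and did not pass (adjusted p = 0.0951).

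Igf2, the second ligand and an imprinted growth factor of fetal tissue, lay close to stroma in both structures. It ran from -0.38 through -0.16 to -0.065 in terminal end buds and from -0.14 through 0.096 to 0.35 in ducts, with overlap. The mean of -0.18 (SE 0.065, adjusted p = 0.037) in terminal end buds was past the threshold, but the call ended without terminal end bud replicate 1, 2, 3, 4 or 6, with adjusted p up to 0.125. With all arrays kept, the call also ended under quantile normalization (-0.16, adjusted p = 0.0956) and with array weights (-0.17, adjusted p = 0.0615). Ducts had 0.085 (adjusted p = 0.371). The difference of -0.265 (95% interval -0.46 to -0.067) did not pass in limma over all probes (adjusted p = 0.0615), although the terminal end bud array was lower in all 6 slide pairs. It passed with neighbouring slides as a random block (adjusted p = 0.0493), with early or late slides as a term (0.0452), and without duct replicate 1 (-0.31, adjusted p = 0.0359) or 2 (-0.30, adjusted p = 0.0417).

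The signalling receptor Igf1r was read by a pair of probes that differ. The probe designed from AK020732 ran from -0.255 through 0.055 to 0.535 in terminal end buds and from 0.39 through 0.64 to 0.77 in ducts, and the ranges overlap through a single terminal end bud array, replicate 3. Its mean was 0.097 (SE 0.084, adjusted p = 0.389) in terminal end buds and 0.62 (SE 0.084, adjusted p = 8.62e-05) in ducts, a difference of -0.52 (SE 0.12, adjusted p = 0.00696). The probe designed from AF056187 ran from 0.038 to 0.42 in terminal end buds and from 0.086 to 0.45 in ducts, with medians of 0.19 and 0.28. Both structures were above stroma on that probe, by 0.22 (adjusted p = 0.015) and 0.27 (adjusted p = 0.00639), and their difference was -0.056 (95% interval -0.26 to 0.15, adjusted p = 0.751). Igf1r was above stroma in ducts on both probes, while the sign of a difference between the structures rests on the AK020732 probe. On the AF056187 probe the terminal end bud call ended without replicate 1 (adjusted p = 0.0589) or replicate 6 (adjusted p = 0.0537).

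Igf2r, which clears IGF2, was slightly above stroma in both structures. It ran from 0.017 through 0.24 to 0.63 in terminal end buds and from 0.17 through 0.25 to 0.375 in ducts, and all 12 arrays were above 0. The means were 0.32 (SE 0.071, adjusted p = 0.00218) and 0.26 (SE 0.071, adjusted p = 0.014), and the duct value did not pass on a common median absolute deviation (adjusted p = 0.0894). The difference between the structures was 0.056 with a 95% interval of -0.16 to 0.27 (adjusted p = 0.77).

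Igfbp2, a binding protein found free in tissue fluid and at cell surfaces, ran from 1.86 through 2.53 to 2.90 on terminal end bud arrays and from 0.78 through 1.12 to 1.71 on duct arrays. Every terminal end bud array was above every duct array. The mean ratio over stroma was 2.50 (SE 0.13, adjusted p = 3.04e-09), or 5.64-fold, in terminal end buds and 1.14 (SE 0.13, adjusted p = 1.91e-05), or 2.20-fold, in ducts. The difference was 1.36 (SE 0.18, adjusted p = 0.000174), or 2.57-fold. Among all 17589 probes it ranked 46 from the highest both in terminal end buds over stroma and in terminal end bud minus duct.

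Igfbp5, whose promoter with TATTTAAA is printed above, had the opposite pattern. It ran from 1.22 through 1.58 to 2.04 on duct arrays, with a mean of 1.605 (SE 0.16, adjusted p = 5.73e-06), or 3.04-fold over stroma and rank 110 from the highest. On terminal end bud arrays it ran from -0.51 through 0.49 to 0.98, with a mean of 0.36 (SE 0.16, adjusted p = 0.0877) that did not pass. All duct arrays were above all terminal end bud arrays. The difference, terminal end bud minus duct, was -1.25 (SE 0.23, adjusted p = 0.00144), rank 107 from the lowest of all probes. The terminal end bud mean depended on replicate 4, the only one below 0: without it the mean was 0.53 (adjusted p = 0.00727). It also passed with early or late slides as a term (0.36, adjusted p = 0.033) and with array weights (0.41, adjusted p = 0.0469).

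**Figure D2:**
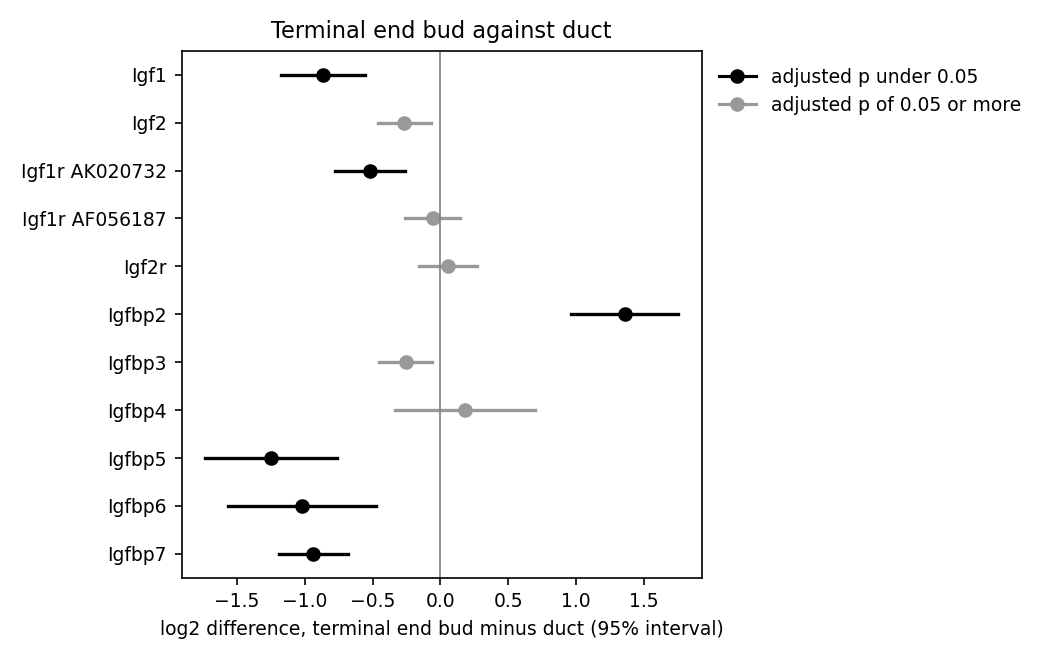
Log2 difference, terminal end bud minus duct, of each probe with its 95% interval from limma. Black marks an adjusted p under 0.05 over all probes and grey the rest. Igfbp2 stands alone on the right at 1.36, and Igfbp5, Igfbp6, Igfbp7, Igf1 and the AK020732 probe of Igf1r lie on the left at -1.25 to -0.52.

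Igfbp7, a secreted protein of vessel walls and stroma as well as epithelium, took opposite signs in the structures. It ran from -0.85 through -0.57 to -0.16 in terminal end buds, all 6 below stroma, and from 0.22 through 0.34 to 0.77 in ducts, all 6 above it. The means were -0.55 (SE 0.084, adjusted p = 8.03e-05) and 0.38 (SE 0.084, adjusted p = 0.00331), and the difference was -0.94 (SE 0.12, adjusted p = 0.000115). With the arrays scaled to a common median absolute deviation the duct value was 0.34 and did not pass (adjusted p = 0.0876).

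Igfbp6, which prefers IGF2 over IGF1, ran from -1.53 through -1.03 to 0.20 in terminal end buds and from -0.456 through 0.14 to 0.51 in ducts. The groups overlapped through terminal end bud replicate 2 alone, which was above every duct array but replicate 2. Duct replicate 6 was below 0 but above the other terminal end bud arrays. The means were -0.93 (SE 0.18, adjusted p = 0.000624) and 0.089 (SE 0.18, adjusted p = 0.766), and the difference was -1.02 (SE 0.25, adjusted p = 0.0111). Over the 11 probes, the arrays of the structures did not overlap for 4, namely Igfbp2, higher in terminal end buds, and Igf1, Igfbp5 and Igfbp7, lower there. Of all probes 10.2% had no overlap, 4.42% higher and 5.79% lower in terminal end buds.

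Igfbp3, the main carrier of IGFs in serum, ran from -0.13 through 0.067 to 0.22 in terminal end buds and from 0.068 through 0.33 to 0.54 in ducts. It was above stroma in ducts by 0.32 (SE 0.066, adjusted p = 0.00221) but not past the threshold in terminal end buds, at 0.061 (adjusted p = 0.495). The difference of -0.26 (95% interval -0.46 to -0.058) missed the threshold over all probes (adjusted p = 0.0726) and passed without duct replicate 2 (-0.31, adjusted p = 0.0297) and with array weights (-0.30, adjusted p = 0.0267). Igfbp1, which was no member and whose gene is the neighbour of Igfbp3, was at 0.063 in terminal end buds and 0.0515 in ducts, and neither ratio passed (adjusted p = 0.414 and 0.56).

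Igfbp4, a binding protein that blocks IGF action until a protease cuts it, passed in no comparison over the 12 arrays, at 0.36 (adjusted p = 0.106), 0.18 (adjusted p = 0.492) and a difference of 0.18 (95% interval -0.33 to 0.70, adjusted p = 0.674). Its values followed the slide numbers as read from the titles. On the 2 terminal end bud slides up to 193 it was at 1.07 and 1.105, and on the 4 slides from 196 on at -0.485 to 0.21. Duct arrays stood at 0.35 and 0.65 on slides up to 193 and at -0.15 to 0.13 on later ones. On slides up to 193 alone the means were 1.09 in terminal end buds and 0.50 in ducts, whereas on slides from 196 on the terminal end bud mean was -0.0025. These subsets were chosen after seeing the data, so a test of them against 0 cannot count as support and none is given. With early or late slides as a term the terminal end bud value passed (adjusted p = 0.00934), as it did without terminal end bud replicate 3 (0.53, adjusted p = 0.0133). That term takes out the same split of slides. Other members also split by slide set, with no overlap of a group's values between the sets. The share of all probes that split this way was not counted, so no split is read as particular to a member. The AK020732 probe of Igf1r was at most 0.004 up to slide 193 and at least 0.03 later in terminal end buds. In ducts these values were 0.47 and 0.63. Igfbp6 and Igf2r split in terminal end buds only, and Igfbp5 and Igf2 in ducts only. In terminal end buds Igfbp6 was at -0.24 on slides up to 193 alone (limma adjusted p = 0.494) and at -1.275 on later ones.

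**Figure D3:**
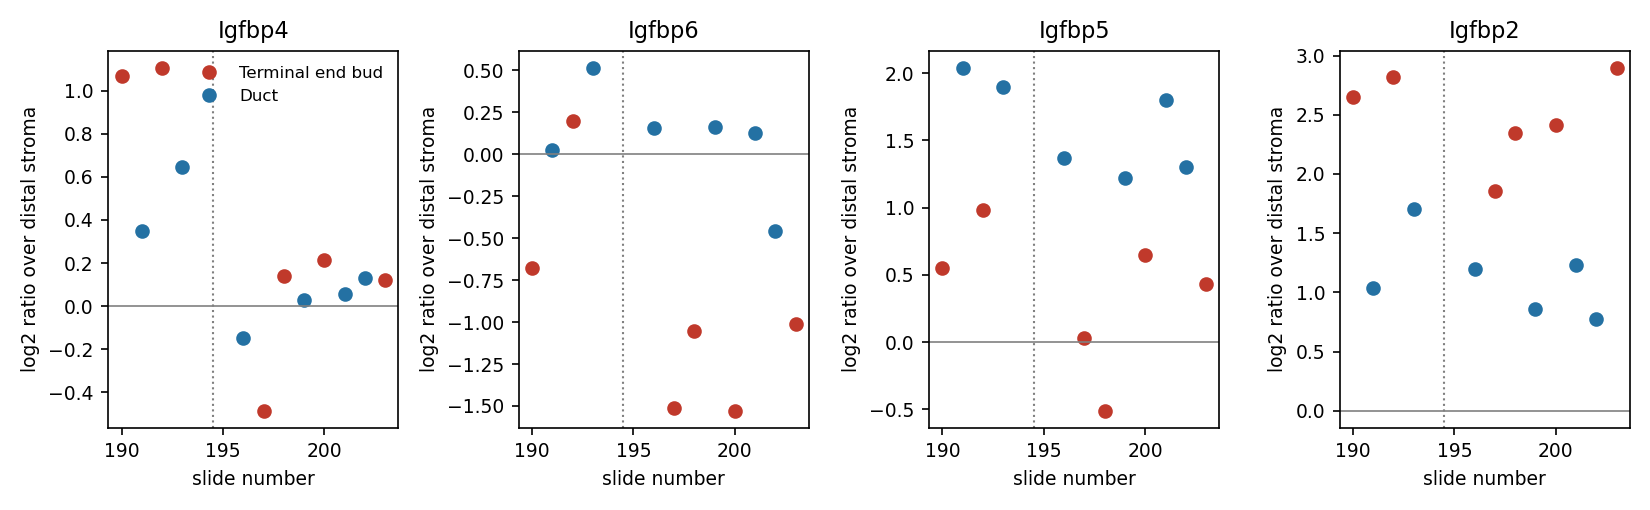
Log2 ratios over distal stroma of Igfbp4, Igfbp6, Igfbp5 and Igfbp2 against slide number, red for terminal end buds and blue for ducts. The dotted line separates slides up to 193 from those from 196 on. Igfbp4 lies at 0.35 to 1.105 left of the line and at -0.485 to 0.21 right of it in both structures, while terminal end bud and duct arrays of Igfbp2 and Igfbp5 stay apart on both sides.

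The 6 differences between the structures that passed over all arrays kept their sign on both sets of slides. On slides up to 193 alone, with 2 arrays a group, the differences were -0.97 for Igf1 (adjusted p = 0.0593), -0.90 for Igfbp7 (adjusted p = 0.0884), -0.56 for the AK020732 probe of Igf1r (adjusted p = 0.0814) and -0.51 for Igfbp6 (adjusted p = 0.432). None of these 4 passed there, while Igfbp2 and Igfbp5 did. On slides from 196 on, 7 of the 11 probes passed, Igf2 being the added one at -0.365 (adjusted p = 0.0476).

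Replicate 2 of both structures, on slides 192 and 193, had the highest value of its group for Igf1, Igfbp4, Igfbp6 and Igfbp7. The share of all probes highest on both arrays was not counted. Over probes with values on all arrays, deviations from the group means correlated at 0.280 for this pair, the highest of the neighbouring pairs. The joint peaks are therefore not read as particular to these members. The fibroblast list (7 of 8 genes measured) was highest on the same arrays, with a mean log2 ratio of 0.84 against 0.023 to 0.47 on the other terminal end bud arrays and of 1.28 against 0.11 to 0.59 on the other duct arrays. With those slides left out, also a choice made after seeing the data, the differences were -0.83 for Igf1, -1.16 for Igfbp6 and -0.94 for Igfbp7, and 6 of the 11 probes passed, 1 higher and 5 lower.

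Most measured markers of fat and vessels were lower in terminal end buds than in ducts at the threshold, as were 10.4% of all probes. The adipocyte list (7 of 8 genes measured) had a mean log2 ratio of -1.70 to -1.05 on terminal end bud arrays and -0.53 to -0.37 on duct arrays, and 4 of its 7 genes were lower in terminal end buds than in ducts. For the endothelial list (8 of 8) the ranges were -1.44 to -1.06 and -0.66 to -0.19, and 7 of 8 genes were lower. The brown adipocyte list (6 of 6) ran from -2.95 to -2.34 and from -2.40 to -1.05, and 5 of 6 genes were lower. The fibroblast list overlapped, from 0.023 to 0.84 and from 0.11 to 1.28, with 1 gene higher and 1 lower, and so did the leukocyte list (4 of 7), from -0.31 to 0.26 and from -0.28 to 0.43, with no gene past the threshold. The part of these cells in the ratios of Igf1, Igfbp6 and Igfbp7 was not tested, nor was it for Igfbp2, Igfbp5 and the other members.

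**Figure D4:**
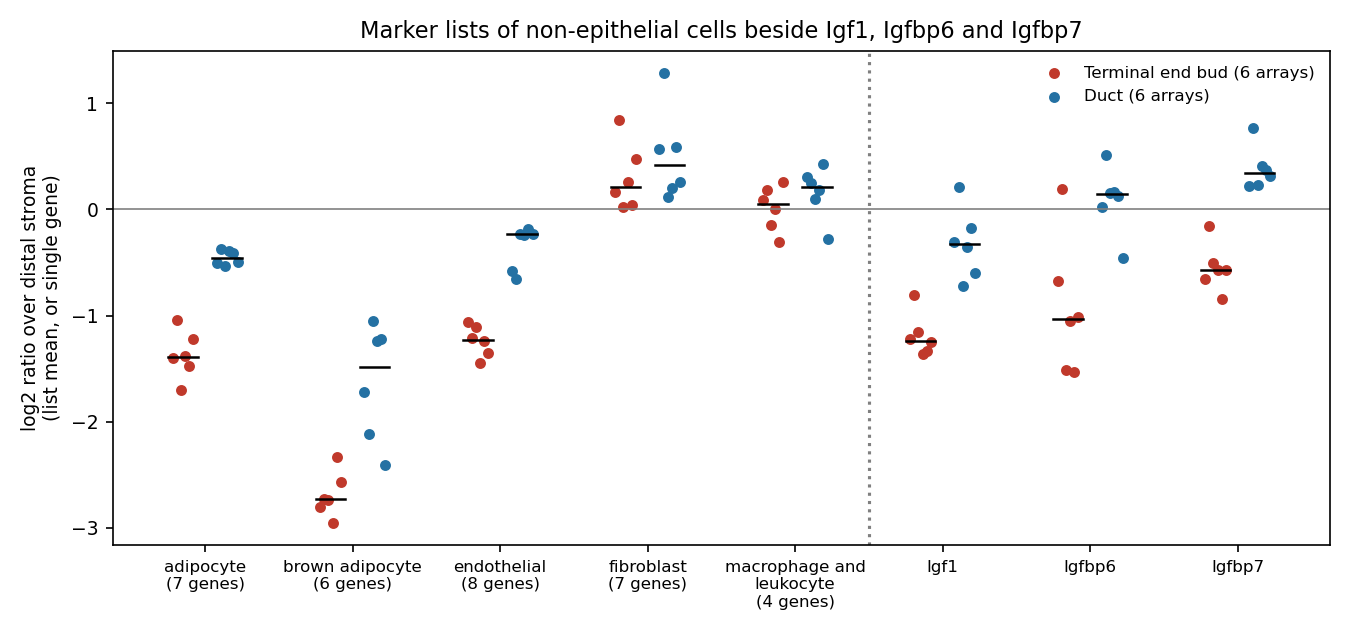
Mean log2 ratio over distal stroma of 5 marker lists (left of the dotted line) and log2 ratios of Igf1, Igfbp6 and Igfbp7 (right), by array, with a bar at each group's median. Terminal end buds are red and ducts blue. Adipocyte and endothelial lists and Igf1 and Igfbp7 separate the structures with no overlap, while fibroblast and leukocyte lists overlap.

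Of the growth hormone axis, which drives Igf1 transcription, Ghr and Jak2 were lower in terminal end buds than in ducts and the other 5 genes did not pass between the structures. Of 7 measured genes, 1 was higher and 3 lower than stroma in terminal end buds, 4 were higher and 0 lower in ducts, and between the structures terminal end buds had 0 higher and 2 lower. The shares of all probes given above for the members (23.2% and 20.4%, 16.0% and 12.2%, 8.32% and 10.4%) are the background for these counts and for those of the lists that follow. Several list counts lie near them, and none is read as particular to its list. Ghr, the growth hormone receptor, was at -2.32 to -1.76 in terminal end buds and -0.52 to 0.345 in ducts, with no overlap. Its mean was -2.04 (SE 0.10, adjusted p = 2.85e-09) in terminal end buds and -0.205 (adjusted p = 0.171) in ducts, a difference of -1.83 (SE 0.15, adjusted p = 4.47e-06). Jak2, the kinase bound to that receptor, was at -0.23 in terminal end buds and 0.28 in ducts, a difference of -0.51 (adjusted p = 0.000872). The feedback inhibitor Socs3 was higher than stroma in both, by 0.51 and 0.36, while Socs2 (0.36) and the transcription factor Stat5a (0.34) were higher in ducts. The duct calls of Socs2 and Stat5a ended with arrays on a common spread (median absolute deviation), at adjusted p = 0.0893 and 0.115, and that of Stat5a also without duct replicate 3 (0.0746) or 6 (0.0858). Cish was lower in terminal end buds, at -0.66 (adjusted p = 0.0228), a call that ended without terminal end bud replicate 1 (adjusted p = 0.0671), 2 (0.079), 4 (0.073) or 6 (0.0588).

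Genes that carry the signal of the IGF and insulin receptors went both ways. Of 17 measured of 20 listed, 6 were higher and 7 lower than stroma in terminal end buds, 4 higher and 3 lower in ducts, and, between the structures, 3 higher and 4 lower in terminal end buds. The list medians were -0.044, 0.018 and -0.065, beside 0.015, 0.015 and 0.00033 over all probes. The adaptor Gab1 was above stroma by 0.91 and 0.63, and the phosphatase Ptpn1, which dephosphorylates the receptors, by 0.825 and 0.51. The growth kinase Mtor was below stroma in both, at -1.08 and -0.615, as was Akt2, at -0.81 and -0.46, although its duct value missed the threshold without duct replicate 1 (adjusted p = 0.0541) or 2 (0.0655). Pik3r1, the regulatory subunit of the lipid kinase PI3K, was at -0.76 in terminal end buds and 0.31 in ducts, a difference of -1.07 (SE 0.091, adjusted p = 5.73e-06) with no overlap of the arrays. Its catalytic partner Pik3ca was lower in terminal end buds than in ducts by a difference of -0.57 (adjusted p = 0.00253), and Gsk3b, a kinase that AKT inhibits, was higher by 0.59 (adjusted p = 0.00228). The others of this list that passed between the structures, with smaller differences, were Shc1 (0.38, adjusted p = 0.04), Irs1 (-0.32, adjusted p = 0.0109) and Ptpn1 (0.31, adjusted p = 0.018). The difference for Mtor, -0.46 (adjusted p = 0.0234), was -0.060 under quantile normalization (adjusted p = 0.849), and it missed the threshold without terminal end bud replicate 4 or 6 or duct replicate 3, with adjusted p = 0.0532, 0.0527 and 0.0526.

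**Figure D5:**
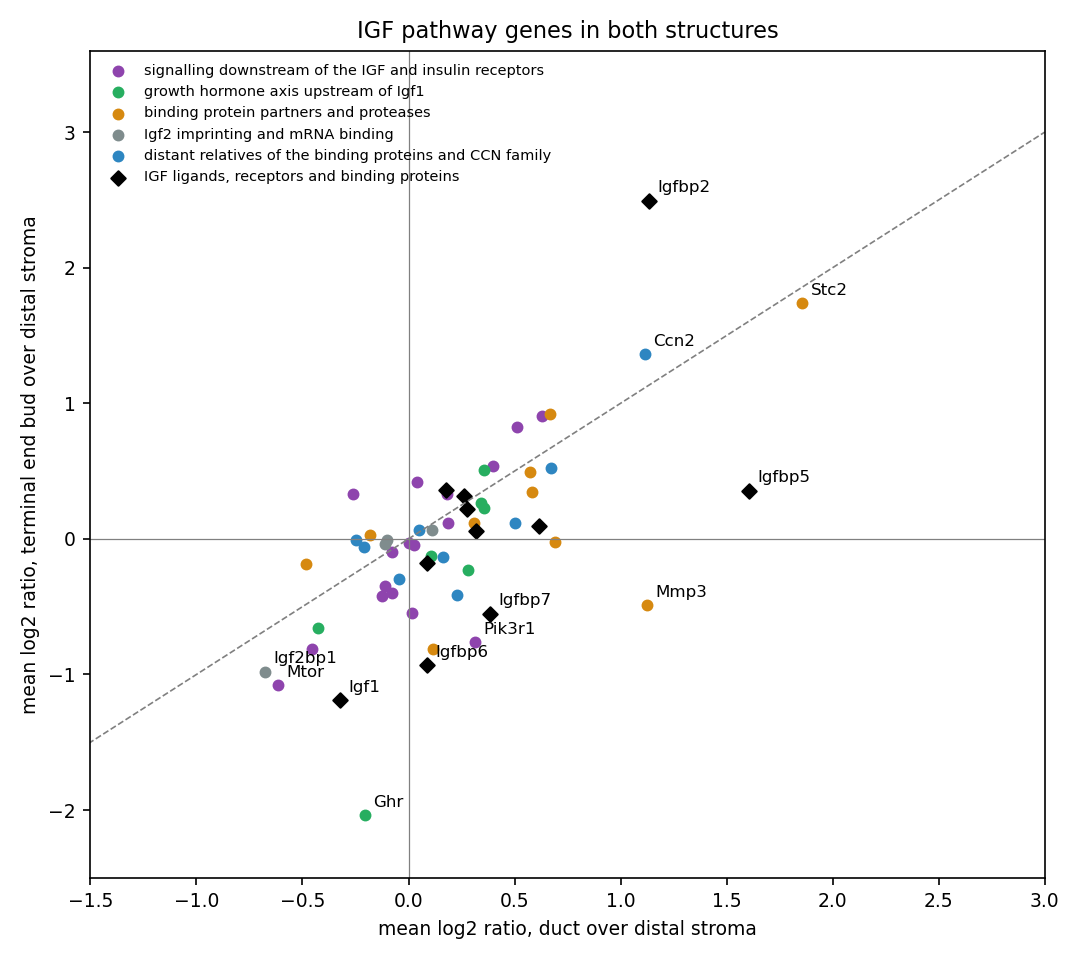
Mean log2 ratio over distal stroma in terminal end buds (vertical) against ducts (horizontal) for the 10 IGF genes (black diamonds, 11 probes) and the genes of 5 pathway lists (coloured points). Points on the dashed line have equal ratios in both structures. Igfbp2 lies above the line at 2.50 and 1.14, while Igfbp5, Mmp3, Ghr and Pik3r1 lie below it.

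Of 10 measured partners and proteases of the binding proteins, of 11 listed, terminal end buds had 4 higher and 2 lower than stroma, ducts 7 higher and 1 lower, and, between the structures, 0 higher and 3 lower in terminal end buds. Stc2, a secreted inhibitor of the protease that cuts IGFBP4, was above stroma by 1.74 (SE 0.18) and 1.86 (SE 0.18), and Pappa, that protease, by 0.49 and 0.57. Without terminal end bud replicate 4 the terminal end bud value of Pappa was 0.34 (adjusted p = 0.0549). Mmp3, a matrix protease that can also cut IGFBP3, was at -0.49 in terminal end buds and 1.13 in ducts, a difference of -1.61 (SE 0.15, adjusted p = 1.15e-05). Igfals, the third subunit of the serum complex of IGF and IGFBP3, was at -0.82 and 0.11, a difference of -0.93 (adjusted p = 0.00104). The serine protease Htra1 differed by -0.71 (adjusted p = 0.0389), a call that ended without any one of terminal end bud replicates 3 to 6 or of duct replicates 1, 2, 4 and 5, with adjusted p between 0.0625 and 0.0842. Plat, a plasminogen activator, was above stroma by 0.92 and 0.67.

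Of 4 measured genes of Igf2 imprinting and of the proteins that bind its mRNA, out of 6 listed, Igf2bp1 was below stroma in both structures, at -0.98 (adjusted p = 1.1e-05) and -0.68 (adjusted p = 0.00075), and the other 3, Igf2bp3, Ctcf and Plagl1, passed in neither comparison. No gene of this list passed between the structures. Against stroma, 2 of 9 distant relatives of the binding proteins were higher in terminal end buds and 1 was lower, and 4 were higher and 1 lower in ducts. Ccn2, a matrix-associated growth regulator, led with 1.36 (SE 0.12) and 1.11 (SE 0.12), and Ccn4 stood at 0.52 and 0.67. Duct values of Ccn4 were 0.156 and -0.098 on slides up to 193 and 0.879 to 1.029 on later ones. On slides up to 193 alone, chosen after seeing the data, Ccn4 was at 0.32 in terminal end buds (limma adjusted p = 0.0806). In ducts it was then at 0.029 (adjusted p = 0.905). Crim1, a membrane protein with an IGFBP-like domain, was at -0.415 and 0.23, a difference of -0.64 (adjusted p = 0.000558) and the only one of the 9 to pass between the structures. Its duct value alone missed the threshold without duct replicate 3, 4 or 5 (adjusted p = 0.0752, 0.0922 and 0.0768). Esm1 was above stroma in ducts, by 0.50 (adjusted p = 0.0089).

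Among 12833 other genes with values on all 12 arrays, those whose log ratios followed a member most closely were listed for the 3 members with the largest differences between the structures. For Igfbp2 they were Sf3b3 (Pearson r = 0.981), Bub3 (0.968) and Rhog (0.958). For Igfbp5 they were Myoz2 (0.974), Cdkn2c (0.950) and Ctla2b (0.949). For Igfbp6 they were Mmp2 (0.952), Myl6 (0.952) and C1ra (0.951). The 12 arrays fall into 2 groups and share 1 kind of reference, so these values are descriptions. Over deviations from the group means r was 0.904, 0.817 and 0.785 for Igfbp2, 0.914, 0.826 and 0.817 for Igfbp5, and 0.890, 0.912 and 0.933 for Igfbp6. The genes were picked by r over the same arrays, so these values follow in part from that choice and are no separate check.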

How the data were processed

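The values are the authors' deposited table of normalized log ratios, taken as log2 of Cy5 (epithelium) over Cy3 (distal stroma) per the labels. Scanner, background correction, normalization and log base were not given in the sources used here. Array medians lay between 0.01 and 0.023, and values were used as deposited. The spread differed: the SD over all probes was 0.535 to 0.635 on terminal end bud arrays and 0.380 to 0.484 on duct arrays. Signal strength and depth are not used here, so no probe was judged against background. Probes were named by the platform annotation. All 10 genes matched RefSeq by gene number, and no member probe had a missing value.

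With limma 3.58.1 in R 4.3.3, 1 fit of 2 group means over 12 arrays gave each group against 0 and their difference. Tests were two-sided, with Benjamini-Hochberg adjustment over all 17589 probes and a threshold of 0.05. The fit was tested on simulated data. A probe needed values on 4 of 6 arrays per group, which removed 0 probes. Replicate numbers follow the order of the records. Slide numbers were read from the ends of the sample titles, and early or late refers to these numbers, not to dates. Pairs of neighbouring slide numbers (1 array of each structure) had correlated deviations of -0.061 to 0.280 and served only as an alternative.

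The members and lists were chosen with earlier results of these data known. All member probes are named. Each pathway list gives its counts, from 1 probe a gene, and up to 4 genes past the threshold with the largest change per comparison. Genes outside these are named for context. Alternatives were centring, 2 rescalings, probe filters, variance and array weighting, slide terms and blocks, each group alone, averaging the probes of a gene, and each array left out. Fits on parts of the slides were added after seeing the data.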

Additional observations from a re-analysis of the deposited data

Results flagged for a closer look

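The difference between the structures, terminal end bud minus duct on the log2 scale, passed limma's test of that difference for 6 member probes: Igfbp2 at 1.36, Igfbp5 at -1.25, Igfbp6 at -1.02, Igfbp7 at -0.94, Igf1 at -0.86 and the AK020732 probe of Igf1r at -0.52. It also passed for pathway genes. Those chosen by the naming rule were Ghr at -1.83, Mmp3 at -1.61, Pik3r1 at -1.07, Igfals at -0.93, Htra1 at -0.71, Crim1 at -0.64, Gsk3b at 0.59, Pik3ca at -0.57, Jak2 at -0.51 and Mtor at -0.46, and the others that passed were Shc1 at 0.38, Irs1 at -0.32 and Ptpn1 at 0.31.

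In 7 of 70 groups of 6 arrays, 1 array stood far from the other 5 relative to the group's range, and chance gives about 5% of groups. Among the members these were Igf1 in terminal end bud replicate 2, at -0.81, and Igfbp7 in duct replicate 2, at 0.77. Among pathway genes they were Mtor in duct replicate 3, at -0.24, Cish in terminal end bud replicate 5, at 0.79, Socs3 in duct replicate 4, at 0.68, Ccn2 in duct replicate 6, at 0.589, and Esm1 in terminal end bud replicate 6, at 0.525.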

How the results depend on the processing

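Of 33 member results (11 probes in 3 comparisons), 346 of 363 values under other settings with all arrays kept their direction and side of the threshold, as did 379 of 396 with 1 array left out. On 1 set of slides alone, 38 of 66 did, and 8 changed sign. Centring, the probe filters and the robust variance prior changed no call of a member, which raises the share under other settings. With arrays scaled to a common median absolute deviation, ducts against stroma gave 2820 probes in place of 4952 and 5 member probes in place of 8. On slides up to 193 alone the counts were 4644 probes and 4 member probes for terminal end buds against stroma (7674 and 7 over all arrays), 2173 and 4 for ducts against stroma, and 1031 and 2 between the structures (3295 and 6). That fit has 2 arrays a group. With 1 array left out, the counts were 6890 to 7797, 4039 to 5076 and 2779 to 3356 probes, and 5 to 7, 7 to 8 and 6 to 8 member probes.

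All changes of sign were in values that had not passed. The difference for Igf2r was -0.029 under quantile normalization, -0.0061 to 0.116 with 1 array left out (lowest without terminal end bud replicate 6) and -0.13 on slides up to 193. That for the AF056187 probe of Igf1r was 0.031 with a common median absolute deviation and 0.0895 on slides up to 193. On those slides Igfbp3 (-0.0545) and the AK020732 probe of Igf1r (-0.1255) against stroma in terminal end buds and Igf2 in ducts (-0.116) turned. On slides from 196 on, Igfbp4 was at -0.0025 in terminal end buds and -0.018 in its difference, and Igfbp6 at -0.00225 in ducts. The cause was not tested. With neighbouring slides as a random block the difference for Igf2 passed (adjusted p = 0.0493), and the fixed block changed no call of a member. The mean of the Igf1r probes was -0.29 between the structures (adjusted p = 0.0348) and gave no count of member probes. No paired analysis was possible from replicate numbers because the labels carry none.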
